A study of Mus musculus with 4 samples.

Results

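The genes described here are 10 receptors and bridging molecules through which phagocytes take up dying cells, myelin debris and lipoproteins: Axl, Mertk, Gas6, Pros1, Mfge8, Lrp1, Stab1, Msr1, Cd36 and Scarb1. They were chosen by symbol from the 32285 features of the count matrices, and all 10 were found. Droplet single-cell RNA sequencing had been run on CD11b+ and CD45+ cells sorted from the brains of 2 PRMT1FL and 2 PRMT1Cx3cr1-KO mice, 1 library per mouse. PRMT1FL mice carry floxed alleles of Prmt1, an arginine methyltransferase gene, on a C57BL/6 background, and PRMT1Cx3cr1-KO mice carry the same alleles with the Cx3cr1-CreERT driver, a tamoxifen-dependent recombinase expressed from the microglial Cx3cr1 locus. Both genotypes received tamoxifen at 5 to 6 wk of age and then cuprizone (CPZ), a copper chelator that strips myelin, at 0.2% of the diet for 5 wk. The sample labels give this age for the diet rather than for tamoxifen, and they call the PRMT1FL mice wild type. Only the PRMT1Cx3cr1-KO mice carried the driver, so its presence and the loss of Prmt1 cannot be told apart, and there were no mice on a normal diet.

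Clearance of apoptotic cells, or efferocytosis, starts when phosphatidylserine is exposed on a dying cell. The soluble proteins Gas6 and Pros1 bind this lipid and engage TAM receptor tyrosine kinases, whereas Mfge8 links the lipid to integrins. Of the TAM receptors Axl and Mertk, Gas6 engages both and Pros1 engages Mertk but not Axl. Axl is typically raised by interferon and inflammation and Mertk by quiescence and steroid signals, while Lrp1, Stab1, Msr1, Cd36 and Scarb1 take up lipoproteins, oxidised lipid, collagen fragments or phosphatidylserine directly. In demyelinated brain this machinery removes myelin debris, a step that precedes the formation of new myelin.

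All 10 genes are protein coding, and their positions are those of GENCODE vM21 on build GRCm38 (mm10). The receptor genes Axl and Mertk lie at chr7:25757273-25788705 and chr2:128698956-128802894. The TAM ligand genes Gas6 and Pros1 lie at chr8:13465374-13494490 and chr16:62854307-62929346, and Mfge8 lies at chr7:79133768-79149060. Lrp1 and Stab1 lie at chr10:127538161-127621148 and chr14:31139013-31168641. The scavenger receptor genes Msr1, Cd36 and Scarb1 lie at chr8:39581685-39642673, chr5:17781690-17888801 and chr5:125277087-125341094.

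The promoters of the TAM ligand and receptor genes are shown because the results turn on the levels of these receptors in the D/E-like cell clusters and on the opposite changes of the ligands between genotypes there. Each sequence runs 5′ to 3′ along the gene's strand from 250 bases before to 50 bases after the RefSeq start site (build GRCm38.p6), and capitals mark the GC box GGGCGG or its reverse complement.
Axl, chr7:25788684-25788983, minus strand: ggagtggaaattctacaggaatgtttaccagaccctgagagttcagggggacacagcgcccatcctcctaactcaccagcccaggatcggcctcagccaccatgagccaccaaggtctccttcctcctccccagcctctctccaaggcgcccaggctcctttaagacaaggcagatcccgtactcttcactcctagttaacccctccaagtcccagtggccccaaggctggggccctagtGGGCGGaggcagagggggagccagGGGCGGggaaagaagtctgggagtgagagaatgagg
Mertk, chr2:128698665-128698964, plus strand: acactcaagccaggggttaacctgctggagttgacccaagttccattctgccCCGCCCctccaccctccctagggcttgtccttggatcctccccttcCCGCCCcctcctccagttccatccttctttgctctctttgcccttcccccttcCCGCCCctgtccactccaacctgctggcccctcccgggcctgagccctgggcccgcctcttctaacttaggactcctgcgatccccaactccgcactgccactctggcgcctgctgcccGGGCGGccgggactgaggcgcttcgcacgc
Gas6, chr8:13494486-13494785, minus strand: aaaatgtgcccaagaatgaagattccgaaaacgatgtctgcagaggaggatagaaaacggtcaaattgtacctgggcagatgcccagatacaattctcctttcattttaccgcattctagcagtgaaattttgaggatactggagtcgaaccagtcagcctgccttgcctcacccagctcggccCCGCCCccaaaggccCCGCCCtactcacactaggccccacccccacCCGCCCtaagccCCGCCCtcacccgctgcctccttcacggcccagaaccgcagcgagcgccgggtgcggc
Pros1, chr16:62854057-62854356, plus strand: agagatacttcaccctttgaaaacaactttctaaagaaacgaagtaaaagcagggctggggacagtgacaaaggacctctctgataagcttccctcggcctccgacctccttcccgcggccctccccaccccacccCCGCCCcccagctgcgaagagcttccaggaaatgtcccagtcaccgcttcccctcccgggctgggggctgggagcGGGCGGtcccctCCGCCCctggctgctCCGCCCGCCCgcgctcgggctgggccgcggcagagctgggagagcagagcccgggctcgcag
The table of promoters held 8 of the 10 genes. The GC box, searched on both strands, lay in 7 of these 8, with 2 copies in Axl, 4 each in Gas6 and Mertk and 5 in Pros1, and it was present in 35.7% of all 32851 promoters. Stab1 had none. Of 3 further motifs searched on both strands, the ETS core GAGGAA lay in Axl, Mfge8 and Stab1 (28.3% of all promoters), the MAF core TGCTGA in Cd36 and Stab1 (19.5%) and the nuclear receptor core AGGTCA in Cd36 (16.3%). These matches describe the letters of the windows only.

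The libraries held 76943248 to 99559644 unique molecular identifiers (UMIs, tags that count each captured RNA molecule) over 8284 to 11554 barcodes, and 31 to 46 barcodes were shared between any pair of libraries. Of 40869 cells that passed the filters, 39272 fell into microglial clusters, in which the 8 microglial markers summed to 9655 to 11012 CPM (UMIs of a gene as a share of all UMIs of the same cells, scaled to 1000000) and none was at 0. Microglia were divided into 9 states. Names ending in -like rest on marker genes only, in part those the paper lists for its clusters A1 to F. Clusters 2 and 5 were D/E-like, with P2ry12, Sall1, Tmem119 and Siglech among the markers of both, which are genes of resting microglia. The paper's cluster E also expressed the pro-inflammatory genes Tnfaip2 and Nfkbia, which are not among the markers this name rests on. D and E were not told apart here. The paper reports loss of D and gain of E in PRMT1Cx3cr1-KO microglia. The part of such a shift in the results of clusters 2 and 5 was not tested. A1-like cells were led by the cell-cycle genes Mki67 and Top2a, interferon-responding-like cells by Rsad2 and Ifit3, and B1-like cells by Ms4a7 and Clec12a. Cluster 0 was led by Gpnmb, cluster 1 by Mmp12 and heat-shock genes, cluster 3 by the inflammatory genes Il12b, Cxcl2 and Il1b, and cluster 8 by haemoglobin and cell-cycle genes. Prmt1 itself was at 90.9 and 83.9 CPM in PRMT1FL microglia against 70.3 and 70.6 in PRMT1Cx3cr1-KO microglia (log2 fold change -0.39, adjusted p = 0.0738). The counts are per gene and do not tell intact from recombined transcripts, which makes this a weak check of the labels.

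The first question was whether the 10 genes differed between genotypes over all microglia. Each PRMT1Cx3cr1-KO mouse had less Axl, Scarb1, Pros1, Mertk and Cd36 than either PRMT1FL mouse, and each had more Msr1, Mfge8 and Lrp1. Gas6 and Stab1 overlapped between genotypes. These 8 of 10 genes without overlap compare with 56.1% of the 13832 genes tested, the 5 that were lower with 17.2% and the 3 that were higher with 38.9%. None of the 10 passed an adjusted p of 0.05 in edgeR's quasi-likelihood test, which called 0.802% of all genes (0.564% higher and 0.239% lower in PRMT1Cx3cr1-KO microglia), although 6 had an unadjusted p under 0.05, against 19.8% of all genes. DESeq2, which called 5.68% of the genes it tested, called 4 of the 10, namely Axl, Pros1, Msr1 and Scarb1. The median log2 fold change of the 10 genes was -0.15 and that of all genes tested was -0.0042.

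Among the receptors, Axl was at 322.5 and 308 CPM in PRMT1FL mice 1 and 2 and at 256 and 191 in PRMT1Cx3cr1-KO mice 1 and 2. The highest PRMT1Cx3cr1-KO value lay well under the lowest PRMT1FL value (log2 fold change -0.57, SE 0.15, adjusted p = 0.119). Mertk was at 189 and 188 in PRMT1FL mice and at 174 and 159 in PRMT1Cx3cr1-KO mice, a smaller gap in the same direction (-0.25, SE 0.08, adjusted p = 0.162). Both TAM receptors were therefore at their lowest in PRMT1Cx3cr1-KO mouse 2. Lrp1, an endocytic receptor for lipoproteins and myelin debris, was at 277 and 279 in PRMT1FL mice and at 288 and 328 in PRMT1Cx3cr1-KO mice (0.069, SE 0.07, adjusted p = 0.637). Stab1, a scavenger receptor that also binds phosphatidylserine, was at 91.2 and 92.6 in PRMT1FL mice and at 90.6 and 126 in PRMT1Cx3cr1-KO mice, so that only mouse 2 stood higher (0.16, SE 0.13, adjusted p = 0.546).

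Msr1, the class A scavenger receptor for modified lipoproteins, had the largest difference of the 10 genes. It was at 8.41 and 7.92 CPM in PRMT1FL mice and at 13.8 and 24.3 in PRMT1Cx3cr1-KO mice (log2 fold change 1.14, SE 0.23, adjusted p = 0.0829). A UMI of Msr1 was found in 5.66% and 5.92% of PRMT1FL microglia and in 8.61% and 15.3% of PRMT1Cx3cr1-KO microglia. After thinning to 1000 UMIs per cell these shares were 0.852% and 0.64% against 1.16% and 2.17%, in the same order by genotype. The median microglial cell held 6274 and 7150 UMIs in PRMT1FL mice against 6354 and 6962.5 in PRMT1Cx3cr1-KO mice, so the depths overlapped. Neutrophil-like cells, which should lack the gene, had no UMI of Msr1 in 71 cells with a median of 3752 UMIs, which allows a share of up to 4.23% from counting error alone. Of these cells 24 and 46 came from the PRMT1FL libraries and 0 and 1 from the PRMT1Cx3cr1-KO libraries, so they give no background share for the latter. The 7 markers of border-associated macrophages moved with Msr1, summing to 33.7 and 32.3 CPM in PRMT1FL microglia against 60.3 and 157 in PRMT1Cx3cr1-KO microglia, with all 7 higher in both PRMT1Cx3cr1-KO mice and none at 0. Without the B1-like cells, of which there were 32 and 14 in PRMT1FL against 87 and 451 in PRMT1Cx3cr1-KO libraries, the difference in Msr1 was still 1.10 (adjusted p = 0.0776), that in Axl -0.58 (0.117) and that in Stab1 0.13 (0.599). The part of these markers in the remaining differences was not tested. With the state of the cells as a term, Msr1 differed by 1.02 and Axl by -0.53.

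Cd36 and Scarb1, the class B scavenger receptors for long-chain fatty acids and high-density lipoprotein, were both lower in PRMT1Cx3cr1-KO microglia. Cd36 was sparse, at 4.99 and 5.94 CPM in PRMT1FL mice against 4.71 and 3.87 in PRMT1Cx3cr1-KO mice (log2 fold change -0.42, SE 0.15, adjusted p = 0.203). Scarb1 was at 51.02 and 49.8 in PRMT1FL mice and at 43.2 and 41.8 in PRMT1Cx3cr1-KO mice (-0.32, SE 0.07, adjusted p = 0.0829). The values of Scarb1 did not overlap between genotypes, but the difference was only -0.097 (adjusted p = 0.684) with cells thinned to 1000 UMIs. That of Cd36 was -0.71 with thinned cells and -0.19 over all cells, and ran from -0.59 without PRMT1Cx3cr1-KO mouse 1 to -0.26 without PRMT1Cx3cr1-KO mouse 2.

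The bridging molecules did not share a direction. Gas6 was at 323 and 299.7 CPM in PRMT1FL mice and on either side of these in PRMT1Cx3cr1-KO mice, at 288 and 346 (log2 fold change -0.051, SE 0.09, adjusted p = 0.798). Its sign turned to 0.12 with thinned cells and to 0.074 with state as a term. Pros1 was at 111 and 115 in PRMT1FL mice and at 97.8 and 101.5 in PRMT1Cx3cr1-KO mice, without overlap (-0.26, SE 0.06, adjusted p = 0.0988). Mfge8 was at 18.5 and 16.5 in PRMT1FL mice and at 19.8 and 20.3 in PRMT1Cx3cr1-KO mice (0.12, SE 0.08, adjusted p = 0.425).

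The share of microglia with a UMI was also taken for Axl and Gas6. For Axl it was 70.1% and 70.3% in PRMT1FL mice against 63.8% and 59.3% in PRMT1Cx3cr1-KO mice, and 24.1% and 23.3% against 19.9% and 15.7% after thinning to 1000 UMIs per cell. The groups did not overlap either way. For Gas6 it was 59.2% and 57.6% against 63.6% and 72.8%, but 21.5% and 19.0% against 21.3% and 25.9% after thinning, where the genotypes overlapped. In the neutrophil-like cells, nearly all from PRMT1FL libraries, 8.45% had a UMI of Axl and 9.86% one of Gas6. Thinning left out 214 to 436 shallower cells per mouse.

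**Figure D1:**
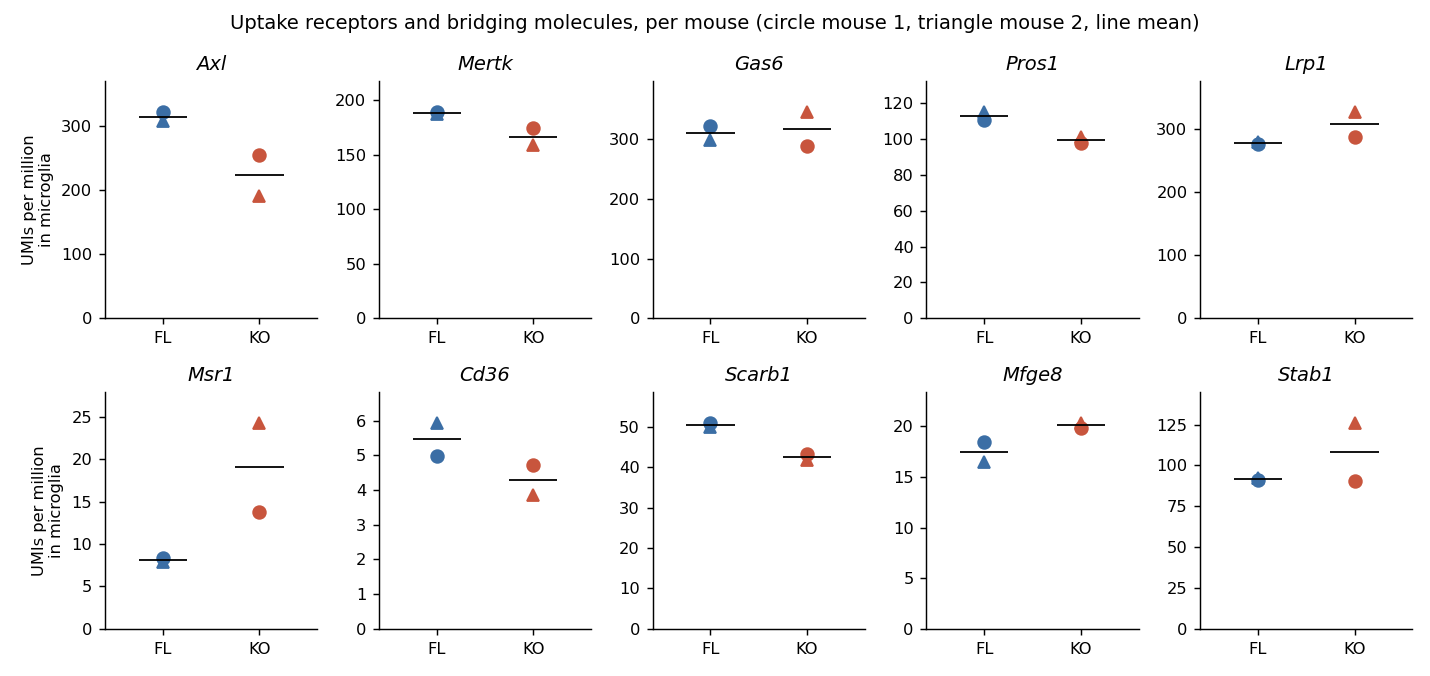
Level of each of the 10 genes in microglia (vertical axis, CPM, starting at 0) for the PRMT1FL (FL) and PRMT1Cx3cr1-KO (KO) mice. Each point is 1 mouse, circles mouse 1 and triangles mouse 2, and lines are means of 2 mice. The KO points of Axl, Mertk, Pros1, Cd36 and Scarb1 lie below both FL points, those of Msr1, Mfge8 and Lrp1 lie above, and Gas6 and Stab1 overlap.

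PRMT1Cx3cr1-KO mouse 2 lay farther from the PRMT1FL mean than mouse 1 in 9 of the 10 genes, Pros1 being the exception. The same count was not taken over all genes tested, so it does not show whether these 10 genes differ from genes at large. With PRMT1Cx3cr1-KO mouse 1 left out, 7 of the 10 genes passed, as did 2331 genes in all, and Msr1 reached a log2 fold change of 1.48 and Axl one of -0.82. With PRMT1Cx3cr1-KO mouse 2 left out, Axl (-0.35, adjusted p = 0.0303) and Msr1 (0.70, adjusted p = 0.00339) passed and 713 genes in all. With either PRMT1FL mouse left out none of the 10 passed, and only 4 genes in all without mouse 1 and 6 without mouse 2. In such fits the lone mouse of a genotype is assumed to vary like the pair of the other. Stab1 turned to -0.068 without PRMT1Cx3cr1-KO mouse 2 and Gas6 turned to 0.057 without mouse 1.

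**Figure D2:**
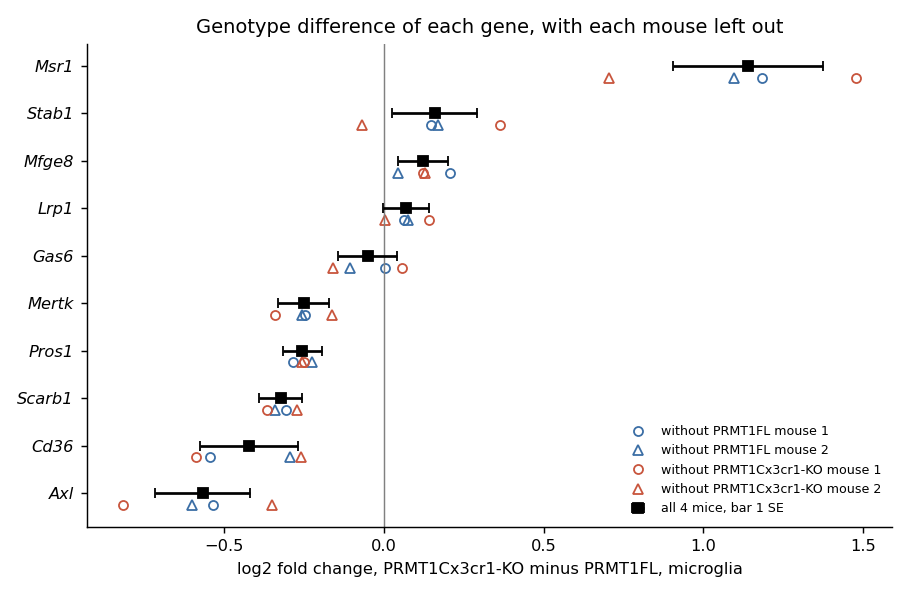
Log2 fold change of each gene between genotypes in microglia (horizontal axis, PRMT1Cx3cr1-KO minus PRMT1FL), ordered by size. Squares with bars are the value over all 4 mice with 1 SE, and open symbols under each are the values with 1 mouse left out. Axl, Cd36, Scarb1, Pros1 and Mertk stay below 0 and Msr1 stays above 0 whichever mouse is left out, whereas Gas6 and Stab1 cross 0.

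The next question was in which cells the 10 genes were found. The states were defined by clustering the same cells, with these 10 genes left out of it, so the levels across states are a description without a test. Axl and Mertk were at opposite ends of their orders in the D/E-like clusters, but not throughout: cluster 1 ranked 3 and A1-like cells ranked 7 for both genes, and over the 32 sums of 8 states in 4 mice their r was -0.44, a description without a test. Axl was lowest in the D/E-like clusters, at a mean of 72.2 CPM over the 4 mice in cluster 5 (range 48.4 to 86.4) and 133 in cluster 2 (92.4 to 153), and the ranges of these 2 clusters lay apart from each other and from every higher state. The low mean of cluster 2 did not hold for all of its cells. When it was divided further, Axl was at 33.5 in subcluster 2.0 and 52.3 in 2.1. It was at 225 (215 to 237) in 2.2 and 186 (108 to 242) in 2.3, which overlapped the range of A1-like cells (172 to 294). Its highest means were in interferon-responding-like cells, at 357 (291 to 408), and B1-like cells, at 345 (288 to 479), whose ranges overlapped. Both ranges also overlapped those of cluster 1 (229 to 363), cluster 3 (212 to 353), cluster 0 (205 to 345), cluster 8 (175 to 299.6) and A1-like cells. B1-like cells numbered only 14 in PRMT1FL mouse 2. Mertk was highest in cluster 5, at 402 (342 to 477), followed by cluster 2 at 318 (271 to 372), 2 ranges that overlapped although cluster 5 was the higher in all 4 mice. Mertk was lowest in cluster 8, at 45.3 (42.5 to 46.9), apart from all other states.

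The ligands also differed in where they were high. Gas6 was highest in cluster 0, at 399.9 (356 to 429), and lowest in cluster 1, at 143 (109.7 to 196), with the D/E-like clusters next at 162 in cluster 2 and 192 in cluster 5. These 3 ranges overlapped. Pros1 had its highest level in cluster 5, at 174 (125 to 233), followed by cluster 0 at 119 (113 to 122), whose range lay apart, and cluster 2 at 112 (95.3 to 128), whose range overlapped that of cluster 5. It was lowest in B1-like cells, at 57.4 (46.3 to 79.8). Cluster 5 thus combined the highest mean levels of Mertk and Pros1 with the lowest of Axl. Its cells were the shallowest of the 9 states, with a median of 2420 UMIs, followed by cluster 2 with 4058.5. The part of depth in these levels was not tested. Mfge8 stayed between 13.7 and 24.7 in every microglial state, and no neighbours in that order had ranges that lay apart.

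Among the scavenger receptors, Stab1 had its highest mean in cluster 5 at 237 (180 to 288) and its lowest in cluster 8 at 51.9 (45.0 to 68.9). Lrp1 was at 376 (326 to 419) in cluster 5 and at 179 (165 to 197) in cluster 8, 2 ranges that lay apart. Among neighbours in its order of states, only cluster 1 (from 197.5) and cluster 8 (to 196.9) had ranges that lay apart, and only narrowly. Msr1 was highest in B1-like cells, at 34.6, but ran from 9.98 to 57.9 over the 4 mice there, and it was lowest in cluster 2, at 4.77 (1.47 to 8.65). Cd36 was under 11 in every microglial state on average, with 1.52 in cluster 5 and 10.1 in B1-like cells. The B1-like mean rested on 23 UMIs, and its range (6.01 to 19.95) overlapped that of cluster 1 (5.48 to 8.44). Scarb1 ranged from 29.7 in cluster 2 to 55.3 in A1-like cells.

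**Figure D3:**
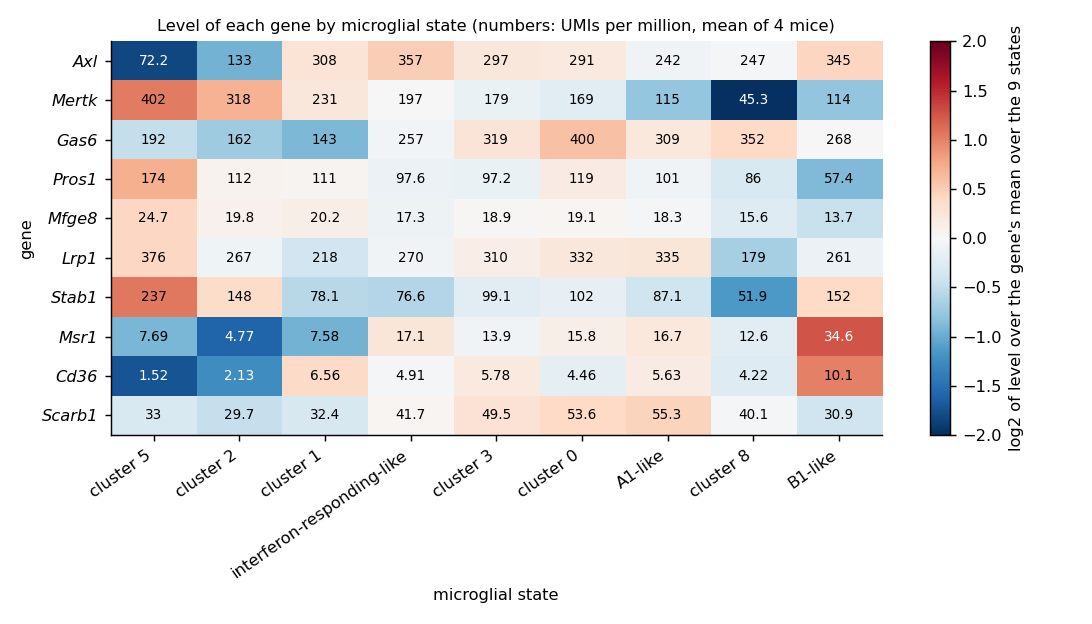
Mean level of each gene in 9 microglial states. Printed numbers are CPM averaged over the 4 mice and colours are the log2 of that level over the mean of the gene's own 9 states. Among the 9 states Mertk is at its highest (402) and Axl at its lowest (72.2) in cluster 5, and Mertk is at its lowest (45.3) in cluster 8. Numbers are to be read along a gene, not between genes.

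The genes most like each of the 10 were sought over 32 sums, 8 states in 4 mice, among 7479 genes with a mean of at least 10 CPM, by Pearson's r of log2(CPM + 1). The sums share mice and libraries, so r is a description. Mertk was matched most closely, by Dennd1c (0.987), Dst (0.985) and Pou2f2 (0.984), and Stab1 by Cyfip1 (0.965), Tnfrsf11a (0.945) and Itgav (0.941), the latter an integrin subunit that binds Mfge8. Axl went with Actr3b (0.94), Chst2 (0.938) and Timp2 (0.909). Gas6 went with Eno1 (0.911), Slc35b1 (0.907) and Syngr1 (0.901), and Pros1 with Laptm5 (0.907), Mettl21a (0.905) and Gmpr2 (0.902). Lrp1 went with Eif4g1 (0.919), Fkbp5 (0.911) and Hsp90b1 (0.897), and Msr1 with Ctla2a (0.887), Lgals1 (0.886) and Wfdc17 (0.885). The matches were looser for Cd36 with Crlf2 (0.857) and Gla (0.855), for Scarb1 with Grn (0.848) and Tfrc (0.844), and for Mfge8 with Rab12 (0.818), Ubfd1 (0.776) and Ing4 (0.771). Among the 10 genes themselves, Axl and Stab1 ran most oppositely (r = -0.81) and Gas6 and Scarb1 most closely together (0.80).

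Outside microglia, several of the genes were far higher in rarer cells of the sort. The 156 border-macrophage-like cells, which held Mrc1, Lyve1 and Cd163, had a mean of 1424 CPM of Stab1 (933 to 1820), 218 of Cd36 (124 to 359.9) and 133 of Msr1 (83.0 to 214). Gas6 was at 532 (337 to 687) there, a range that overlapped that of microglial cluster 0 (356 to 429). Cd36 was also at 141 in the 236 cells of cluster 7.4, which was led by H2-Eb1 and Ccr2. The 319 cells of mixed cluster 7.1, led by Mrc1, had 34.3 CPM of Cd36. They held 148 of its UMIs, against 143 in cluster 7.4 and 105 in border-macrophage-like cells. Of these 319 cells 159 came from PRMT1Cx3cr1-KO mouse 2, 53 from PRMT1Cx3cr1-KO mouse 1, and 48 and 59 from the PRMT1FL mice. Such cells were few, but microglia carried only 84.1% and 86.9% of all UMIs of Cd36 in PRMT1FL libraries and 79.8% and 69.6% in PRMT1Cx3cr1-KO libraries.

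Mfge8 was at 389 (297 to 484) in cluster 9, which held glial and vascular genes such as Sparcl1 and Vtn, and at 2015 in its subcluster 9.0. Cluster 9 had 237 and 153 cells in PRMT1FL libraries and 62 and 33 in PRMT1Cx3cr1-KO libraries, and it carried 18.8% and 18.7% of all UMIs of Mfge8 in the former and 3.26% and 1.95% in the latter. Over all cells the genotype difference of Mfge8 had the opposite sign, -0.089. In the neutrophil-like cells Mfge8, Msr1 and Cd36 had no UMI among 405028, which allows a level of up to 7.41 CPM, while Axl was at 34.6 and Lrp1 at 76.5 there. The part of free RNA in the low microglial level of Mfge8 was not tested.

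Within states, the genotypes were compared by sums per mouse in the 8 microglial states with at least 50 cells in every mouse. B1-like cells were not tested because of their number. Of 77 tests of a gene in a state, 13 passed. Cluster 2 had 4 of 10 genes, 2 higher and 2 lower in PRMT1Cx3cr1-KO cells, against 12.9% of all genes tested there (6.88% higher and 6.06% lower). Cluster 5 had 3 of 8, 2 higher and 1 lower, against 10.1% (5.62% and 4.53%). Cluster 8 had 2 of 10, 1 in each direction, against 3.32% (1.77% and 1.55%), and cluster 1 had 0 of 10, against 0.966%. One gene was lower in cluster 0 (0.593% of all genes lower, 1.13% higher, 1.72% in all) and in A1-like cells (0.316% lower, 0.307% higher, 0.623% in all). One was higher in cluster 3 (0.962% higher, 0.539% lower, 1.5% in all) and in interferon-responding-like cells (0.59% higher, 0.423% lower, 1.01% in all).

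In both D/E-like clusters the TAM ligands passed in opposite directions. Gas6 in cluster 2 was at 129 and 119 CPM in PRMT1FL mice and at 184 and 218 in PRMT1Cx3cr1-KO mice, where it rose by 0.67 on the log2 scale (SE 0.09, adjusted p = 6.3e-04). Pros1 in the same cells was at 127 and 128 in PRMT1FL mice and at 95.3 and 98.3 in PRMT1Cx3cr1-KO mice, and fell by 0.42 (SE 0.08, adjusted p = 0.00591). In cluster 5 Gas6 was at 154 and 130.1 in PRMT1FL mice and at 216 and 268 in PRMT1Cx3cr1-KO mice, a rise of 0.81 (SE 0.14, adjusted p = 1.3e-04). Neither ligand overlapped between genotypes in either cluster. The same split without overlap was seen in cluster 1, which is not D/E-like, but neither ligand passed there. Gas6 was at 126 and 110 in PRMT1FL mice against 141 and 196 in PRMT1Cx3cr1-KO mice (0.43, adjusted p = 0.158). Pros1 was at 113 and 118 against 105 and 107 (-0.19, adjusted p = 0.433). In the neutrophil-like cells, nearly all from PRMT1FL libraries, Gas6 was at 54.3 CPM and Pros1 at 44.4. The part of free RNA in the levels of the ligands was not tested.

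Pros1 in cluster 5 was at 195 and 233 in PRMT1FL mice and at 142 and 125 in PRMT1Cx3cr1-KO mice, and fell by 0.68 (SE 0.14, adjusted p = 8.7e-04). Without PRMT1FL mouse 2 this was -0.52 (adjusted p = 0.0875). The other 3 of these calls held with every mouse left out in turn. The clusters were divided further into 7 subclusters, and in 7 of 7 the Gas6 of each PRMT1Cx3cr1-KO mouse exceeded that of each PRMT1FL mouse, a pattern shown by 1.21% of the 8594 genes tested in both clusters. Pros1 was lower in 7 of 7, as were 0.652% of these genes. The subclusters are parts of clusters in which both ligands had already passed, in the same mice, so this is no independent support. Both shares are over all genes tested, not over genes that passed in both clusters. Subclusters 2.3 and 5.2 had more PRMT1Cx3cr1-KO than PRMT1FL cells (542 and 528 against 156 and 146, and 87 and 270 against 25 and 16). With these subclusters left out, a choice made after seeing the data, Gas6 still rose by 0.60 in cluster 2 (adjusted p = 0.00407) and 0.71 in cluster 5 (3.9e-05), and Pros1 changed by -0.46 (0.0134) and -0.70 (7.0e-05).

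Msr1 and Mertk also passed in cluster 2. Msr1 there rested on 17 and 10 UMIs in PRMT1FL mice against 62 and 66 in PRMT1Cx3cr1-KO mice, or 2.26 and 1.47 against 6.72 and 8.65 CPM, and rose by 1.99 (SE 0.30, adjusted p = 0.00115). Mertk was at 372 and 329 in PRMT1FL mice and at 299 and 271 in PRMT1Cx3cr1-KO mice, and fell by 0.32 (SE 0.10, adjusted p = 0.0478). The call for Mertk was lost without PRMT1FL mouse 1 (adjusted p = 0.29), PRMT1FL mouse 2 (0.0689), PRMT1Cx3cr1-KO mouse 2 (0.236) or subclusters 2.3 and 5.2 (0.202). Stab1 in cluster 5 was at 227 and 180 in PRMT1FL mice and at 253 and 288 in PRMT1Cx3cr1-KO mice, a rise of 0.45 (SE 0.13, adjusted p = 0.0245). This call was lost in 3 of 8 alternatives, among them those without PRMT1FL mouse 2 and without PRMT1Cx3cr1-KO mouse 2.

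In 8 of 8 states each PRMT1Cx3cr1-KO mouse had less Axl than either PRMT1FL mouse, as held for 0.761% of the 8147 genes tested in all of them. The gap was narrowest in cluster 5, at 77.4 in PRMT1FL mouse 2 against 76.5 in PRMT1Cx3cr1-KO mouse 2. The difference passed in A1-like cells, with 280.5 and 294 CPM in PRMT1FL mice against 222 and 172 in PRMT1Cx3cr1-KO mice (-0.59, SE 0.11, adjusted p = 0.038). It passed again in cluster 8, with 299.6 and 283 against 230.0 and 175 (-0.64, SE 0.12, adjusted p = 0.0107). The call in A1-like cells was lost without PRMT1FL mouse 1 (adjusted p = 0.0707), PRMT1FL mouse 2 (0.0811) or the cells marked as doublets (0.0788), and that in cluster 8 without PRMT1FL mouse 1 (0.158). In the other 6 states the log2 fold change of Axl lay between -0.60 in cluster 3 and -0.29 in cluster 5. Mertk and Pros1 were lower without overlap in 6 of 8 states each, as were 3.88% of these genes in at least 6.

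Msr1 was higher in both PRMT1Cx3cr1-KO mice in 7 of the 7 states in which it was tested, as were 3.28% of the 8774 genes tested in those states. Besides cluster 2, it passed in cluster 3, at 7.89 and 7.57 CPM in PRMT1FL mice against 14.4 and 25.8 (1.25, SE 0.23, adjusted p = 0.0465). It passed in interferon-responding-like cells, at 8.43 and 8.53 against 19.6 and 32.0 (1.48, SE 0.31, adjusted p = 0.0101), and in cluster 8, at 9.20 and 7.70 against 13.3 and 20.2 (0.88, SE 0.19, adjusted p = 0.0196). The call in cluster 3 was lost without PRMT1FL mouse 1 (adjusted p = 0.335) or mouse 2 (0.302). That in interferon-responding-like cells, which rested on 15 to 49 UMIs per mouse, was lost without PRMT1FL mouse 2 (0.343) or the marked doublets (0.224). That in cluster 8 was lost without PRMT1FL mouse 1 (0.129), PRMT1FL mouse 2 (0.17) or PRMT1Cx3cr1-KO mouse 2 (0.101). Haemoglobin transcripts, which lead cluster 8, summed to 241 and 94.0 CPM over all PRMT1FL microglia. Over all PRMT1Cx3cr1-KO microglia they summed to 0.0615 and 0.0215, with all 4 genes lower in both mice. Neutrophil-like cells and cluster 9 cells were also fewer in the PRMT1Cx3cr1-KO libraries. The part of such differences between libraries in the results, in cluster 8 or over all microglia, was not tested.

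Scarb1 passed in cluster 0, the largest state, at 63.9 and 59.9 CPM in PRMT1FL mice against 46.1 and 44.6 in PRMT1Cx3cr1-KO mice (-0.51, SE 0.08, adjusted p = 0.021). It failed to pass without PRMT1FL mouse 1 (adjusted p = 0.213) or mouse 2 (0.142). In the D/E-like clusters Scarb1 had the opposite sign, at 0.21 in cluster 2 and 0.54 in cluster 5, and neither passed (adjusted p = 0.262 and 0.17). Lrp1, Mfge8 and Cd36 passed in none of the states in which they were tested. The log2 fold change of Lrp1 ran from -0.08 to 0.29, that of Mfge8 from -0.01 to 0.29 and that of Cd36 from -0.64 to 0.49.

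**Figure D4:**
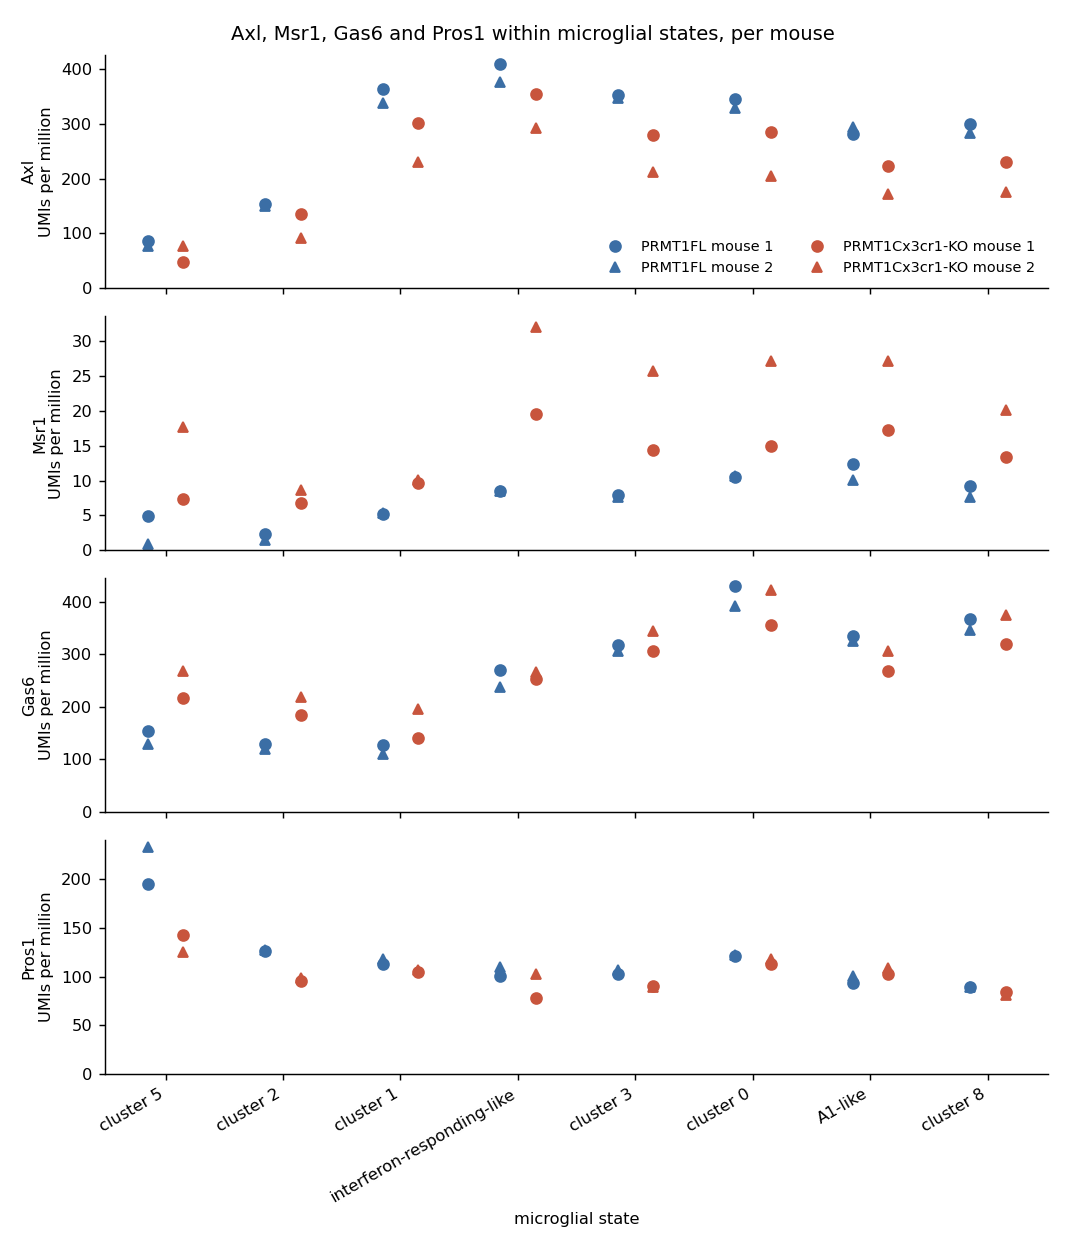
Levels of Axl, Msr1, Gas6 and Pros1 (vertical axes, CPM, starting at 0) in 8 microglial states, with PRMT1FL mice in blue and PRMT1Cx3cr1-KO mice in red. Each point is 1 mouse, circles mouse 1 and triangles mouse 2. Axl is lower and Msr1 higher in the red points of every state, Gas6 is higher in clusters 5, 2 and 1 only, and Pros1 is separated most widely in cluster 5.

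Whether the genotype effect differed between states was tested directly, as the effect in 1 state minus the mean effect in the other 7, with limma's voom and the mouse as a random block. Of 80 such differences 8 passed. The effect on Gas6 exceeded that elsewhere by 0.57 in cluster 2 (SE 0.09, adjusted p = 2.2e-04, 3.24% of all genes called) and by 0.76 in cluster 5 (SE 0.14, adjusted p = 8.7e-04, 3.76%). It was more negative than elsewhere in cluster 0, by -0.34 (SE 0.07, adjusted p = 0.0307, 0.481%), and in A1-like cells, by -0.47 (SE 0.08, adjusted p = 0.00661, 0.676%). In cluster 0 Gas6 was at 429 and 393 in PRMT1FL mice and at 356 and 423 in PRMT1Cx3cr1-KO mice, which overlap, and in A1-like cells it was at 335 and 324 against 269 and 307.

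The effect on Pros1 was more negative in cluster 5, by -0.44 (SE 0.10, adjusted p = 0.00964), and more positive in A1-like cells, by 0.41 (SE 0.08, adjusted p = 0.0102), where it was at 93.3 and 101 CPM in PRMT1FL mice and at 103 and 109 in PRMT1Cx3cr1-KO mice. In cluster 2 the effect on Pros1 did not pass this test (-0.17, adjusted p = 0.209). The effect on Scarb1 differed in cluster 0, by -0.44 (SE 0.10, adjusted p = 0.049). That on Cd36 differed in cluster 5 (adjusted p = 0.046), where PRMT1FL cells had 0 UMIs in both mice and PRMT1Cx3cr1-KO cells 4 and 6. Set against the 3 counts that a count of 0 allows over the 2 PRMT1FL mice together, the PRMT1Cx3cr1-KO level of Cd36 was 2.02-fold higher. This takes the PRMT1Cx3cr1-KO count of 10 as exact, so it is no lower bound. Of these UMIs 9 lay in subcluster 5.2, 1 in 5.1 and 0 in 5.3. Subcluster 5.2 held more PRMT1Cx3cr1-KO than PRMT1FL cells, and its part in the difference was not tested. No effect on Axl, Mertk, Msr1, Lrp1, Mfge8 or Stab1 passed this test, and none of the 10 passed it in cluster 3 (0.586% of all genes called), clusters 1 and 8 (0.0489% each) or interferon-responding-like cells (0.0163%).

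These differences depended on single mice. Without PRMT1FL mouse 1 none of the 8 passed, the smallest adjusted p being 0.0646 for Pros1 in cluster 5, and without PRMT1FL mouse 2 only Gas6 in cluster 2 did. Without PRMT1Cx3cr1-KO mouse 2 the differences of Gas6 in cluster 2, cluster 5 and A1-like cells were kept. With 1 mouse left out, the difference of Gas6 ran from 0.55 to 0.59 in cluster 2, from 0.65 to 0.85 in cluster 5, from -0.37 to -0.35 in cluster 0 and from -0.51 to -0.44 in A1-like cells. That of Pros1 ran from -0.55 to -0.29 in cluster 5 and from 0.36 to 0.42 in A1-like cells, and that of Scarb1 in cluster 0 from -0.56 to -0.33. For Cd36 in cluster 5, which rests on counts of 0 in PRMT1FL cells, the difference ran from 2.95 to 3.40. Its call was lost whichever mouse was left out.

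The wider pathway was described by 95 further genes of uptake, of which 80 were tested in microglia, with a median log2 fold change of -0.026. Of these, 2 rose and 1 fell, against 0.564% of all genes tested that rose and 0.239% that fell. Cd300lf, an inhibitory phosphatidylserine receptor, was at 28.0 and 28.6 CPM in PRMT1FL mice against 41.6 and 42.5 in PRMT1Cx3cr1-KO mice (0.50, SE 0.06, adjusted p = 0.0366). Cx3cr1, the fractalkine receptor and the locus of the driver, was at 1444 and 1542 against 847 and 835 (-0.90, SE 0.08, adjusted p = 0.0167). How many pathway genes passed depended on which mouse was left out. The number of all genes tested that passed changed as well, so this is not read as a result about the pathway.

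For 8 of the 9 roles in the list the counts were as follows. Among other phosphatidylserine receptors 1 of 9 rose, and 1 of 10 find-me and do-not-eat-me genes fell, namely Cx3cr1. As the locus of the driver, it cannot tell the driver from the loss of Prmt1. None passed among the 2 TAM-related genes Adam10 and Adam17, which encode sheddases, or among 10 other opsonins, 11 other scavenger receptors, 13 genes of the engulfment machinery, 8 nuclear receptors and regulators of lipid response and 8 genes of LC3-associated phagocytosis. The highest log2 fold changes were those of Vav3 (2.17, adjusted p = 0.131), Lrp8 (1.78, 0.111) and Mrc1 (1.23, 0.134), and the lowest those of Pparg (-1.36, 0.159), Clu (-1.15, 0.372) and C4b (-1.10, 0.111). All but C4b were under 5 CPM in every mouse, and none of the 6 passed.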

How the data were processed

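Per the submitters' processing notes, the authors used Cell Ranger 3.1.0 and mm10, and they deposited raw UMI counts per gene and barcode, not normalized. Barcodes were kept at 200 to 6000 detected genes and no more than 10% mitochondrial counts, and clustered (Leiden, scanpy 1.11.5, 2000 variable genes, 20 components, resolution 0.4) without 749 genes that differed between genotypes, the 10 genes and their pathway. Counts were summed per mouse over microglial clusters (72740795 to 92838957 UMIs) and tested with edgeR 4.0.16 (quasi-likelihood, TMM, filterByExpr, Benjamini-Hochberg adjustment over all genes tested), with DESeq2 1.42.0 as an alternative. State differences used voom (limma 3.58.1). Levels (CPM) are shares of the summed counts, without TMM, from 3′ tags, and were not compared between genes. Comparison with simulated doublets marked 6.63 to 9.24% of cells per library; these cells were kept. Scripts were tested on simulated data. The smallest 2-sided p of an exact permutation test is 0.333 with 2 mice against 2. Each library is 1 mouse.

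The 10 genes, the pathway list and the tests were chosen with earlier results of these data known. Named were the 10 genes, pathway genes that passed or had the 3 highest or 3 lowest fold changes, and the 3 genes most like each of the 10. Results for 4 genes that this rule or a cluster's leading genes would name are not reported here. Leaving out subclusters 2.3 and 5.2 was chosen after seeing the data. Replicate numbers were not taken to pair the mice. Promoters and gene coordinates are from RefSeq (GRCm38.p6) and GENCODE vM21.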

Additional observations from a re-analysis of the deposited data

Results flagged for a closer look

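For 8 results, the test of the difference itself (limma's voom, effect of genotype in 1 microglial state minus the mean effect in the other 7) passed an adjusted p of 0.05. The effect on Gas6 differed by 0.57 in cluster 2, 0.76 in cluster 5, -0.34 in cluster 0 and -0.47 in A1-like cells, on the log2 scale. The effect on Pros1 differed by -0.44 in cluster 5 and 0.41 in A1-like cells. The effect on Scarb1 differed by -0.44 in cluster 0. The effect on Cd36 differed by 3.14 in cluster 5, a fitted value that depends on the weights given to counts of 0 and is no bound, since PRMT1FL cells there held 0 UMIs and PRMT1Cx3cr1-KO cells 10. The background share of all 12277 genes called was 3.24% in cluster 2, 3.76% in cluster 5, 0.481% in cluster 0 and 0.676% in A1-like cells.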

How the results depend on the processing

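The count of the 10 genes called over microglia was 0 and became 4 with DESeq2, 5 without a filter on low counts and 2 with the replicate block, and ran from 0 to 7 with 1 mouse left out. All genes called numbered 111 and became 730, 1724 and 462 in the same 3 fits, 749 over all cells and 67 without cells holding an astrocyte UMI, and ran from 4 to 2331 with 1 mouse left out. Pathway genes called numbered 3 and became 15, 22 and 9 in the first 3 fits, 9 over all cells, 1 without cells holding an astrocyte UMI and 6 with thinned cells, and ran from 0 to 28 with 1 mouse left out. Within states 13 calls became 24 with the replicate block and ran from 6 to 35 with 1 mouse left out. State differences numbered 8, became 16 with the mouse as a fixed term and ran from 0 to 11 with 1 mouse left out. The cause of these changes was not tested. For the calls within states and the state differences, counts of all genes called in the same alternative fits are not given. Their changes therefore do not show whether the 10 genes moved more than genes at large.

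The sign turned for Gas6 with thinned cells (0.12) and with state as a term (0.074), and its values ran from -0.16 to 0.057 with 1 mouse left out. It turned for Mfge8 over all cells (-0.089). Stab1 ran from -0.068 to 0.36 with 1 mouse left out. With thinned cells Scarb1 differed by -0.097, Cd36 by -0.71, Lrp1 by 0.17 and Mfge8 by 0.0052. Of 316 single-gene values under alternatives, 241 kept direction and side of the threshold, 43 lost a call, 26 gained one and 6 turned sign. Replicate numbers were not taken to pair the mice, since deviations of replicate 1 were uncorrelated between genotypes over 13832 genes (-0.0035). Pairing for part of the genes was not tested. The values with the replicate block stand in this section only. The number of mice, 2 per genotype, and the UMIs of Cd36 and Msr1 in small states limit the precision.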
